A study of Homo sapiens with 4 samples.

Results

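N6-methyladenosine (m6A) is the most common internal modification of eukaryotic mRNA, and the 10 genes described here encode the proteins that place it, remove it or read it. They are the writer subunits METTL3, METTL14 and WTAP, the erasers FTO and ALKBH5, and the YTH domain readers YTHDF1, YTHDF2, YTHDF3, YTHDC1 and YTHDC2. They were chosen by symbol, and all 10 were found among the 19192 genes of each count table. The cells were SW480, an established human colorectal adenocarcinoma line, either labelled IMP1-/- or wild type. Ribosome-protected fragments (RPF, or footprints) and total RNA were sequenced from each, which gave 4 libraries, 1 per group, each from 3 pooled culture plates. The labels name no drug or other treatment, and do not say whether the IMP1-/- cells are a single clone. IMP1 is encoded by IGF2BP1 and belongs to a family of RNA-binding proteins that are themselves reported to prefer m6A-modified RNA.

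METTL3 is the catalytic subunit that transfers a methyl group from S-adenosylmethionine (SAM), METTL14 holds the RNA as its partner, and WTAP keeps the pair in nuclear speckles. FTO and ALKBH5 are iron- and oxoglutarate-dependent dioxygenases that take the methyl group off. The YTH domain binds m6A in a pocket of aromatic residues; the cytoplasmic YTHDF proteins act on decay and translation of mRNA, YTHDC1 acts on splicing and export in the nucleus, and YTHDC2 is an RNA helicase best known from the entry of mouse germ cells into meiosis.

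Library totals were 4932388 counts in IMP1-/- RNA, 5551479 in wild-type RNA, 3778316 in IMP1-/- RPF and 3782874 in wild-type RPF. Each group is 1 library, so nothing below could be tested across replicates and p-values are left out. The 95% intervals cover counting error only, and genotype cannot be told apart from clone, culture or library. IGF2BP1 had 571 RNA reads in the library labelled IMP1-/-, against 598 in wild type, and 149 footprints against 285 in wild type. Its RNA level thus did not bear out the label, while its footprints were lower (log2 -0.93). Counts of reads per gene do not show whether the reading frame is intact, so they cannot decide on the label. IMP1 protein was not measured here, and IMP1-/- is used below as the label of those libraries. One label of the wild-type RNA sample names the line SW840, where all other labels name SW480. Of 9 epithelial markers, 7 had reads in both RNA libraries, while KRT20 and LGALS4 were at 0 in all 4 libraries. The epithelial list summed to 5674 CPM (counts scaled to a common library total) in IMP1-/- RNA and 8326 CPM in wild-type RNA, and to 20318 CPM in IMP1-/- RPF and 25382 CPM in wild-type RPF. Within it the libraries stood far apart at VIL1, the brush-border protein villin, with 2 RNA reads in IMP1-/- and 160 in wild type, and at the adherens-junction gene CDH1, with 286 and 83. In footprints VIL1 had 0 in IMP1-/- and 335 in wild type, and CDH1 had 275 and 88. By the calling rule given below, 4 of the 7 epithelial markers measured were lower in RNA, where 17.8% of all genes were. CDX2 was among them (103 and 268 reads). The rule called 1 marker higher, against 16.2% of all genes. Of the leukocyte markers, PTPRC and CD3E were at 0 in all 4 libraries, and the list summed to 0 reads in both IMP1-/- libraries and to 7 and 5 reads in wild-type RNA and RPF. The 6 fibroblast markers summed to 27 RNA reads in IMP1-/- and 12 in wild type, with DCN at 0 throughout, and to 14 footprints in IMP1-/- and 2 in wild type. The 3 endothelial markers summed to 45 RNA reads in IMP1-/- and 58 in wild type, but to 47 footprints in IMP1-/- and 0 in wild type, where PECAM1, CDH5 and VWF were all at 0. The part of these marker differences in the results below was not tested.

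The bases around the start codon of each open reading frame are shown first, because the members differed widely in how many footprints they carried per RNA read. Each line holds up to 6 bases before the start codon, the start codon in capitals and the 9 coding bases after it, from the GENCODE release 29 transcript that the tables name (GRCh38).
METTL3: actaggATGtcggacacg
METTL14: tggaacATGgatagccgc
WTAP: ttcaagATGaccaacgaa
FTO: ggcagcATGaagcgcacc
ALKBH5: gggccATGgcggccgcc
YTHDF1: tgaagcATGtcggccacc
YTHDF2: agagccATGtcggccagc
YTHDC1: ggagccATGgcggctgac
YTHDC2: agggcaATGtccaggccg
A purine 3 bases before the start codon, the strongest element of the Kozak context in vertebrates, was present in all 10 members (YTHDF3 included) and in 85.1% of 9589 measured genes. A G directly after the start codon was present in 3 members, METTL14, ALKBH5 and YTHDC1, and in 54.2% of the genes. ALKBH5 and YTHDC1 share the same 3 bases on either side of the start codon, and their ratios of footprints to RNA are given below; a relation of start context to that ratio was not tested.

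Levels between genes were set side by side as CPM per kb of coding length. Which region the authors counted is not known, and the order depends on the length used. ALKBH5 (ENST00000399138, chromosome 17, 18184239 to 18209954, plus strand, 4 exons) was the most abundant member in all 4 libraries by this measure. Its RNA level was 358 (343 to 374) in IMP1-/- cells and 200 (190 to 211) in wild-type cells, above 97.3% and 94.5% of genes with a read. In footprints it was at 90.5 (81.9 to 99.7) in IMP1-/- cells and 88.6 (80.1 to 97.7) in wild-type cells. YTHDF1 (chromosome 20, 63195429 to 63216234, minus strand) came next in RNA, at 107 in IMP1-/- and 69.5 (64.2 to 75.0) in wild type, but only at rank 8 of 10 in footprints, at 33.1 (28.8 to 37.9) in IMP1-/- and 35.1 (30.6 to 40.0) in wild type. YTHDC2 (chromosome 5, 113513683 to 113595284, plus strand) was lowest in every library per coding kb, with RNA levels of 10.8 in IMP1-/- and 13.1 in wild type and footprint levels of 12.7 in IMP1-/- and 14.0 in wild type. The remaining RNA levels lay between 19.0 and 42.3 in IMP1-/- cells and between 14.6 and 41.6 in wild-type cells. YTHDF3, FTO, WTAP and YTHDF2 followed YTHDF1 in IMP1-/- RNA with each interval overlapping that of its neighbour. METTL3 (chromosome 14, 21498138 to 21511375, minus strand) was at rank 9 of 10 in IMP1-/- RNA and 8 of 10 in wild-type RNA, yet second in footprints of both genotypes, at 62.9 (57.0 to 69.2) in IMP1-/- and 59.9 (54.1 to 66.1) in wild type; in wild type that interval overlapped the interval of YTHDF2. Per kb of whole transcript, METTL14 was lowest in all 4 libraries and YTHDC2 at rank 8, METTL3 moved to rank 6 in IMP1-/- RNA and 5 in wild-type RNA, and METTL3 was above ALKBH5 in footprints of both genotypes.

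**Figure D1:**
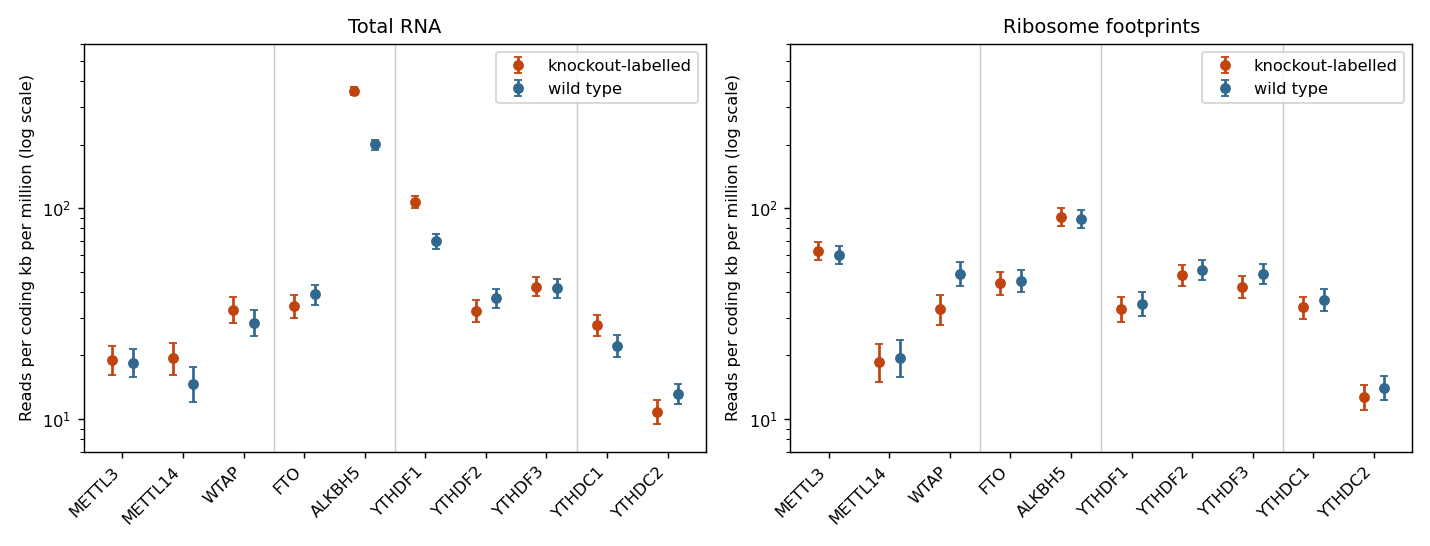
Level of each member in total RNA (left) and ribosome footprints (right), in CPM per kb of coding length on a log axis, for IMP1-/- (knockout-labelled, left of each pair) and wild-type libraries, with exact Poisson 95% intervals. ALKBH5 and YTHDF1 stand above the other members in RNA, ALKBH5 at 358 in IMP1-/- and 200 in wild type, whereas in footprints METTL3 is second to ALKBH5 and YTHDF1 is among the lower members.

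In total RNA, ALKBH5 and YTHDF1 were higher in the IMP1-/- library and the other 8 members were not called. A change was called when it was at least 1.5-fold and its counting interval excluded no change, and by this rule 34.0% of 10875 measured genes were called, 16.2% higher and 17.8% lower, so 2 of 10 members higher is close to the share over all genes. ALKBH5 had 2092 reads in IMP1-/- RNA, against 1317 in wild-type RNA, and the scaled ratio was 1.76 (1.65 to 1.89; log2 0.82). In whole-culture RNA such as this, more cells that express a gene and more RNA per cell cannot be told apart. YTHDF1 had 886 reads in IMP1-/- RNA, against 648 in wild-type RNA, with a ratio of 1.52 (1.37 to 1.68; log2 0.60), just past the 1.5-fold threshold. The ALKBH5 change was above 90.4% of all measured genes and the YTHDF1 change above 83.9%.

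Since ALKBH5 and YTHDF1 were the members higher in RNA, their promoter windows are printed, from 250 bases before to 50 after the RefSeq start (GRCh38.p14), with matches on either strand in capitals. The letters searched were GGGCGG (the GC box), CCAAT (the CCAAT box), TATAAA (the TATA box), CACGTG (an E-box) and TGACG (part of the cAMP response element); no printed matches overlap. The windows are chr17:18183578-18183877 on the plus strand for ALKBH5 and chr20:63216082-63216381 on the minus strand for YTHDF1.
ALKBH5: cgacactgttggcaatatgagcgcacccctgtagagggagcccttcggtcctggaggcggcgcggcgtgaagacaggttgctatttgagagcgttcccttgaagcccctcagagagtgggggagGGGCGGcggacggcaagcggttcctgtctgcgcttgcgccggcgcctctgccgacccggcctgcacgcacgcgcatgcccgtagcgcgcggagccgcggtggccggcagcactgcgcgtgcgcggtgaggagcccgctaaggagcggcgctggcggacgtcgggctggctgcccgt
YTHDF1: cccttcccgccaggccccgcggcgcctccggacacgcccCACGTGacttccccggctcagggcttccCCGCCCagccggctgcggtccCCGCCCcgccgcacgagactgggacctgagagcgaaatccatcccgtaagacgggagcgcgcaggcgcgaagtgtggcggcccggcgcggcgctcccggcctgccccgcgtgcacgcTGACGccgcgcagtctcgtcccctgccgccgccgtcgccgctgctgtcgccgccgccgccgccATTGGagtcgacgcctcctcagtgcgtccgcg
Both hold the GC box letters GGGCGG, once in ALKBH5 and at 2 places in YTHDF1 (there as CCGCCC), and so do 45% of 35116 such windows. The YTHDF1 window also holds CACGTG, found in 7.26% of windows, CCAAT, found in 34.6%, and TGACG, found in 24.6%. TATAAA, found in 11.5% of windows, is in neither. These matches are descriptions of letters and not of binding.

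Of the uncalled members, METTL14 had 131 reads in IMP1-/- RNA, against 111 in wild type (log2 0.39, 0.01 to 0.77). YTHDC1 had 293 reads in IMP1-/- RNA, against 263 in wild type (0.31, 0.06 to 0.55), and YTHDC2 had 228 against 313 in wild type (-0.31, -0.56 to -0.06). These 3 intervals left out no change, but the ratios were below 1.5-fold. METTL3 was level, with 163 reads in IMP1-/- and 179 in wild type (0.02), as was YTHDF3 with 367 and 406 (0.01). WTAP had 193 and 189 reads (0.18), FTO 256 and 328 (-0.21), and YTHDF2 280 and 362 (-0.22), IMP1-/- before wild type, with intervals that included no change. The median RNA change was 0.10 over the members and -0.01 over all measured genes.

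In footprints, 0 of the 10 members were called, against 39.1% of 9794 measured genes (19.0% higher, 20.1% lower). The changes of 9 members lay between -0.20 and 0.07 on the log2 scale, where the middle 80% of all genes spanned -0.99 to 0.93. That span takes in genes with as few as 50 footprints over both libraries and was not matched to the members in depth. ALKBH5 had 405 footprints in IMP1-/- cells, against 397 in wild-type cells (ratio 1.02, 0.886 to 1.17), and YTHDF1 had 210, against 223 in wild type (0.941, 0.776 to 1.14), so neither higher RNA level was matched by a detectable difference in footprints. METTL3 had 414 footprints in IMP1-/- and 395 in wild type, METTL14 96 and 101, and FTO 253 and 259. YTHDF2 had 315 in IMP1-/- and 334 in wild type, YTHDF3 281 and 323, YTHDC1 272 and 296, and YTHDC2 206 and 228. For each of these 7 the interval included no change. WTAP was the member that stood apart, with 149 footprints in IMP1-/- and 220 in wild type, a ratio of 0.678 (0.546 to 0.837; log2 -0.56), which came short of the 1.5-fold threshold at 1.48-fold. The median footprint change was -0.09 over the members and -0.00065 over all genes.

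**Figure D2:**
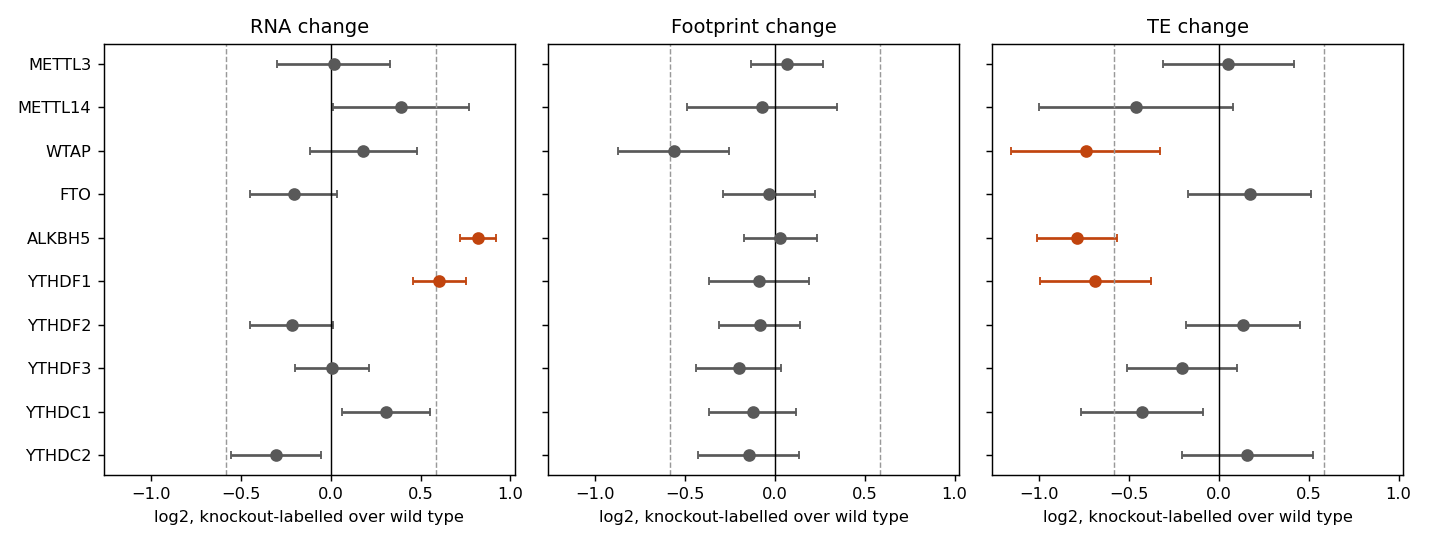
RNA change, footprint change and TE change of each member as log2 of IMP1-/- (knockout-labelled) over wild type, with 95% counting intervals; dashed lines mark 1.5-fold and coloured points are called. The footprint panel holds no called member, with WTAP lowest at -0.56, while ALKBH5 and YTHDF1 are called in the RNA and TE panels and WTAP in the TE panel.

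Translational efficiency (TE), the footprint level over the RNA level, was called lower in IMP1-/- cells for 3 of the 10 members and higher for 0. The same rule called 29.6% of 9598 genes, 13.9% lower and 15.7% higher. ALKBH5 had a TE change of -0.79 (-1.01 to -0.57), WTAP of -0.74 (-1.16 to -0.33) and YTHDF1 of -0.69 (-1.0 to -0.38). For ALKBH5 and YTHDF1 these values arose from more RNA reads at near-equal footprints. For WTAP the value joined fewer footprints (-0.56) with an RNA change of 0.18, whose interval included no change. The WTAP footprint change alone was below 1.5-fold. YTHDC1 had -0.43 (-0.77 to -0.09), below 1.5-fold, and METTL14 had -0.46 with an interval from -1.01 to 0.08. METTL3, FTO, YTHDF2 and YTHDC2 had values between 0.05 and 0.17, and YTHDF3 had -0.21, all with intervals that included no change. The median TE change was -0.32 over the members and 0.03 over all genes. With 4 libraries the interaction of genotype and library kind has 0 residual degrees of freedom, so TE changes are values and not tests.

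**Figure D3:**
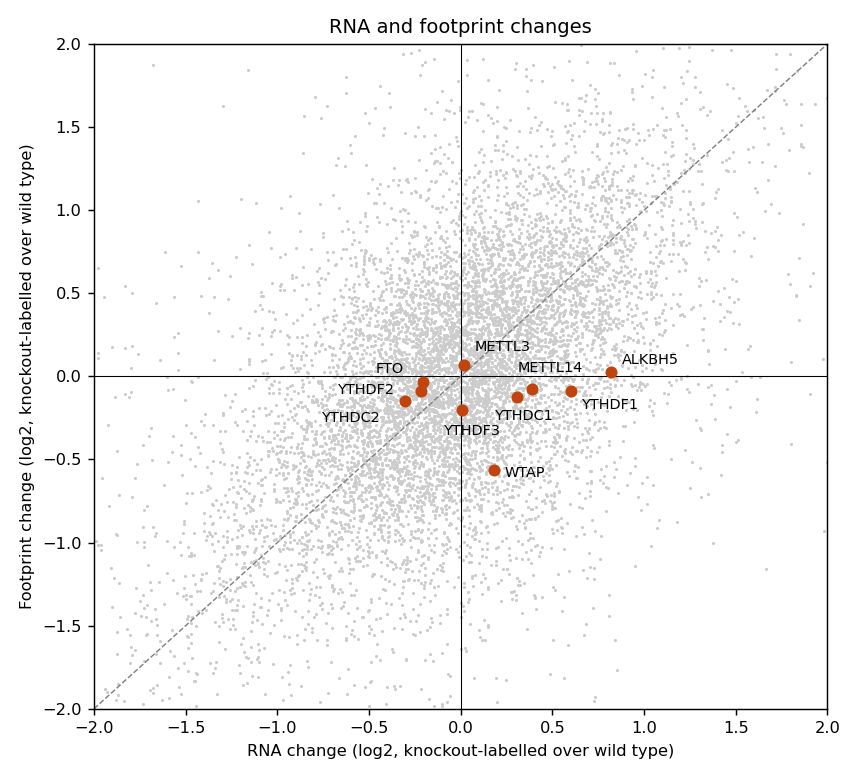
Footprint change against RNA change (log2, IMP1-/- over wild type) for 9598 genes measured in both (grey) and the 10 members (coloured); 384 genes lie outside the axes and the dashed line marks equal change. The members lie along the horizontal axis, from YTHDC2 at an RNA change of -0.31 to ALKBH5 at 0.82, with WTAP below them.

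Within each genotype TE spanned a wide range among the members, from METTL3 at the top to ALKBH5 at the bottom. METTL3 had 414 footprints to 163 RNA reads in IMP1-/- cells, a depth-corrected ratio of 3.31 (2.76 to 3.97), and 395 to 179 in wild-type cells, a ratio of 3.23 (2.71 to 3.86). This was exceeded by 3.62% of 9598 genes in IMP1-/- and 2.27% in wild type. ALKBH5 had a ratio of 0.253 (0.227 to 0.281) in IMP1-/- and 0.443 (0.396 to 0.495) in wild type, with 4.79% and 12.3% of genes below it. The gap between METTL3 and ALKBH5 was 13.1-fold in IMP1-/- cells and 7.30-fold in wild-type cells. YTHDF1 was next to lowest at 0.310 (0.267 to 0.360) in IMP1-/- and 0.506 (0.434 to 0.589) in wild type, with an interval that overlapped that of ALKBH5 in both genotypes. The other 7 members lay between 0.958 and 1.47 in IMP1-/- and between 1.07 and 1.71 in wild type. Each of their intervals overlapped that of its neighbour in the order. The all-gene medians were 1.1 in IMP1-/-, inside that range, and 1.08 in wild type, where only YTHDC2 of the 7 lay below it. WTAP was second in wild type and at rank 6 of 10 in IMP1-/- cells.

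**Figure D4:**
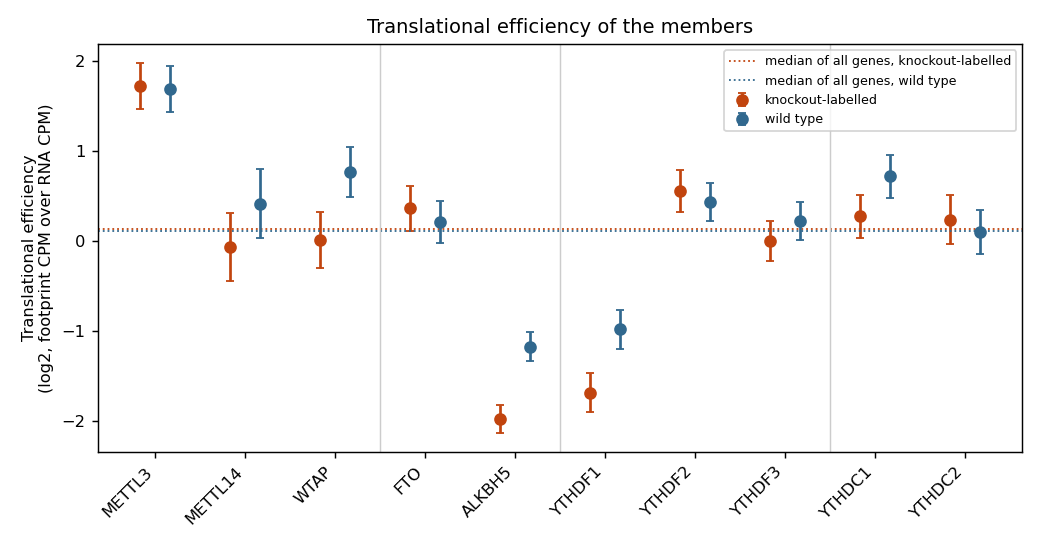
TE of each member as log2 of footprint CPM over RNA CPM in IMP1-/- (knockout-labelled, left of each pair) and wild-type cells, with 95% counting intervals and the median of all genes as dotted lines. METTL3 is highest at 1.73 and 1.69, and ALKBH5 and YTHDF1 are lowest in both genotypes.

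The region of each transcript that the authors counted is not given in the sources used here, and over 9589 genes TE went with transcript shape. Spearman's rho with the coding share of the transcript was 0.28 in IMP1-/- and 0.29 in wild type, and with the length of the 3′ UTR it was -0.47 and -0.45; both values share the same libraries, and their part in the order of the members was not tested. METTL3 has a compact transcript, 86.5% coding with a 3′ UTR of 120 bases. ALKBH5 and YTHDF1 lie near the middle of all genes, at 43.1% and 50.9% coding. FTO and METTL14, with 3′ UTRs of 10026 and 5131 bases, are 12.9% and 20.6% coding and had mid-range TE. The 5′ UTR of YTHDF1 is 81.0% G and C, above 93% of genes, and rho of TE with that property was -0.24 in IMP1-/- and -0.18 in wild type over 9107 genes. The annotated 5′ UTR of the ALKBH5 transcript is only 5 bases long, so it gives no such value. The RefSeq start used for the ALKBH5 promoter window lies upstream of this GENCODE transcript. For YTHDF1 the GENCODE transcript begins upstream of the RefSeq start and inside the printed window, so part of its 5′ UTR lies there. For both genes the annotations thus differ on where the RNA begins.

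For METTL3 and METTL14, partners in 1 complex, RNA and footprints diverged when taken per coding kb. In RNA the ratio of METTL3 to METTL14 per coding kb was 0.979 (0.773 to 1.24) in IMP1-/- cells and 1.27 (0.995 to 1.62) in wild-type cells. In footprints it was 3.39 (2.71 to 4.28) in IMP1-/- and 3.08 (2.47 to 3.87) in wild type, with intervals that overlapped between the genotypes. By coding length the excess of METTL3 was thus in footprints. If RNA reads were counted over whole transcripts, the RNA ratio per transcript kb would be 4.12 in IMP1-/- and 5.34 in wild type. METTL3 would then be in excess in RNA too, so whether the excess was in footprints alone depends on the region counted. Per coding kb, METTL3 footprints to WTAP footprints stood at 1.90 (1.57 to 2.31) in IMP1-/- and 1.23 (1.04 to 1.45) in wild type. The METTL14 transcript (chromosome 4, 118685368 to 118715433, plus strand) had the fewest reads of all members. A stretch of 345 bases of METTL3, 17.1% of its transcript, overlaps exons of TOX4 on the opposite strand. Whether the counting used strand is not given. TOX4 had 257 RNA reads in IMP1-/- and 326 in wild type, more than the 163 and 179 of METTL3. In footprints TOX4 had 156 in IMP1-/- and 168 in wild type, fewer than METTL3.

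Among the erasers, ALKBH5 RNA exceeded FTO RNA per coding kb by 10.5 times (9.19 to 12) in IMP1-/- cells and by 5.14 times (4.55 to 5.82) in wild-type cells. Per transcript kb the RNA ratio was 35 in IMP1-/- and 17.2 in wild type. In footprints per coding kb the ratio was 2.05 (1.75 to 2.41) in IMP1-/- and 1.96 (1.67 to 2.31) in wild type, with overlapping intervals. FTO (chromosome 16, 53703963 to 54121941, plus strand) was called in no comparison. A stretch of 357 bases of ALKBH5, 13.0% of its transcript, overlaps the antisense gene AC087164.1, and reads of the 2 genes cannot be told apart if strand was not used.

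The readers showed the same contrast. YTHDF1 held 57.8% (55.3 to 60.3, exact binomial interval) of all YTHDF RNA reads in IMP1-/- cells and 45.8% (43.1 to 48.4) in wild-type cells, but 26.1% (23.1 to 29.2) of YTHDF footprints in IMP1-/- and 25.3% (22.5 to 28.4) in wild type. The 3 coding lengths are near each other, at 1680, 1740 and 1758 bases for YTHDF1, YTHDF2 and YTHDF3. YTHDF2, which recruits the CCR4-NOT deadenylase to m6A-marked mRNA, held the largest share of YTHDF footprints by count, 39.1% (35.7 to 42.5) in IMP1-/- and 38.0% (34.7 to 41.3) in wild type, with intervals that overlapped those of YTHDF3. For the nuclear reader YTHDC1 (chromosome 4, 68313321 to 68350089, minus strand) over YTHDC2, the RNA ratio per coding kb was 2.59 (2.17 to 3.09) in IMP1-/- and 1.69 (1.43 to 2.0) in wild type, and the footprint ratio was 2.66 (2.21 to 3.21) in IMP1-/- and 2.62 (2.19 to 3.12) in wild type.

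Sharing of sequence with other genes limits 2 members most. Of the 30-base words in the YTHDF2 coding sequence (chromosome 1, 28736621 to 28769774, plus strand), 35.8% also occur in other transcripts, mostly in the pseudogene YTHDF2P1. For WTAP (chromosome 6, 159727500 to 159756317, plus strand) the share was 22.6%, mostly in the processed pseudogene AL158050.1. For the other 8 members it was at most 1.33%. With words of 18 bases, the shortest fragment kept, the coding share was 48.6% for YTHDF2 and 28.3% for WTAP. For the other 8 members it was then at most 8.13%, in FTO. YTHDF1, YTHDF2 and YTHDF3 (the last on chromosome 8, 63168553 to 63212786, plus strand) share no 30-base word with each other. How reads with several matches were treated is not given, so the levels of YTHDF2 and WTAP are uncertain. Sharing of sequence was not examined for the genes of the other lists, so this limit is unknown for their values below.

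The other genes of the pathway were described from 7 lists with 54 measured genes. Of these, 11 (20.4%) were called in RNA, 18 (33.3%) in footprints and 17 (31.5%) in TE, against 34.0%, 39.1% and 29.6% of all genes, so the lists as a whole lay below or near the all-gene shares. Beside each list below, the all-gene shares are 16.2% higher and 17.8% lower in RNA, 19.0% and 20.1% in footprints, and 15.7% and 13.9% in TE. The 5 accessory subunits that join WTAP in the writer had 0 called in RNA (median -0.36). In footprints 1 was lower, ZC3H13, a scaffold that keeps the writer in the nucleus, with 352 in IMP1-/- and 621 in wild type (log2 -0.82, -1.01 to -0.63), and the ubiquitin ligase CBLL1 had a higher TE (0.71, 0.28 to 1.14). KIAA1429, also named VIRMA, was level in RNA and footprints (0.08 and 0.11). Of 5 methyltransferase genes outside this complex, 2 were lower in RNA (all genes, 17.8%) and 1 in footprints (20.1%), with an RNA median of -0.35. METTL16, which methylates U6 snRNA and the MAT2A mRNA, had 271 RNA reads in IMP1-/- and 479 in wild type (-0.67, -0.89 to -0.45), and PCIF1, the writer of the cap-adjacent mark m6Am, had 92 and 203 (-0.99, -1.36 to -0.63). TRMT112, the partner of the 18S rRNA methyltransferase METTL5, had 1492 footprints in IMP1-/- and 2399 in wild type (-0.69, -0.78 to -0.59).

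Of 12 reported m6A readers without a YTH domain, 4 were lower in RNA (all genes, 17.8%), 5 lower in footprints (20.1%) and 0 higher in either. HNRNPA2B1, a nuclear RNA-binding protein, had 1502 RNA reads in IMP1-/- and 4640 in wild type (-1.48, -1.56 to -1.39), and its footprint change was -1.32. RBMX had 153 RNA reads in IMP1-/- and 479 in wild type (-1.49, -1.77 to -1.23), with a footprint change of -1.56. HNRNPC and FMR1 were also lower in both, at -0.67 and -0.61 in RNA and -0.61 and -1.01 in footprints. The fifth footprint call was IGF2BP1 itself (-0.93, -1.23 to -0.65), while IGF2BP2 had -0.09 in RNA and 0.01 in footprints, and IGF2BP3 had -0.41 and 0.10. FXR2 had a lower TE (-0.70, -0.97 to -0.43), as did IGF2BP1 (-1.02). The RNA median of the list was -0.25.

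The 14 decay genes that YTHDF2 works with or that act beside it had 1 lower in RNA (all genes, 17.8%), 3 lower in footprints (20.1%), and 5 lower (13.9%) and 1 higher (15.7%) in TE, with a TE median of -0.30. UPF1, the helicase of nonsense-mediated decay, had 278 RNA reads in IMP1-/- and 629 in wild type (-1.03, -1.24 to -0.82) at near-equal footprints of 540 and 579. The genes with a lower TE were the CCR4-NOT deadenylases CNOT7 (-0.75) and CNOT8 (-0.90), the subunits CNOT10 (-0.63) and CNOT11 (-0.65), and POP1 (-0.68), a protein of RNase P and MRP. CNOT1, the scaffold of the complex, had -0.11 in RNA and 0.11 in footprints. CNOT7, CNOT3 and POP1 were lower in footprints, at -0.63, -0.79 and -0.79. Of 4 nuclear partners of YTHDC1, the splicing factors SRSF3 and SRSF10 were lower in RNA (-0.68 and -0.86; all genes, 17.8% lower), and both were lower in footprints (-0.80 and -1.08; all genes, 20.1% lower) together with the polyadenylation factor CPSF6 (-0.84), which was also lower in TE (-0.61).

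Of the 7 genes listed under SAM supply, 0 were called lower in RNA, footprints or TE, where 17.8%, 20.1% and 13.9% of all genes were. With so few genes this is near the background. MAT2A, the SAM synthetase, had 909 footprints in IMP1-/- and 480 in wild type (0.92, 0.76 to 1.08) and an RNA change of 0.47 (0.31 to 0.64), below the threshold. AHCYL1, whose part in SAM supply was not examined here, was higher in RNA (0.59) and footprints (0.62). MAT2B and AHCY, which clears the product S-adenosylhomocysteine, were higher in TE (0.60 and 0.72). The list medians were 0.13 in RNA, 0.38 in footprints and 0.30 in TE. Of the 7 other AlkB dioxygenases, which repair alkylated nucleic acids or modify tRNA and proteins, 4 were higher in TE (ALKBH1 1.18, ALKBH7 0.92, ALKBH2 0.81 and ALKBH3 0.65) and 1 lower (ALKBH4, -1.13), against 15.7% and 13.9% of all genes. In footprints ALKBH1 and ALKBH3 were higher (0.77 and 1.18) and ALKBH4 was lower (-1.08), and in RNA ALKBH7 was lower (-0.77). Their TE median was 0.65, and these genes had few reads, with 43 to 216 RNA reads in the IMP1-/- library.

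**Figure D5:**
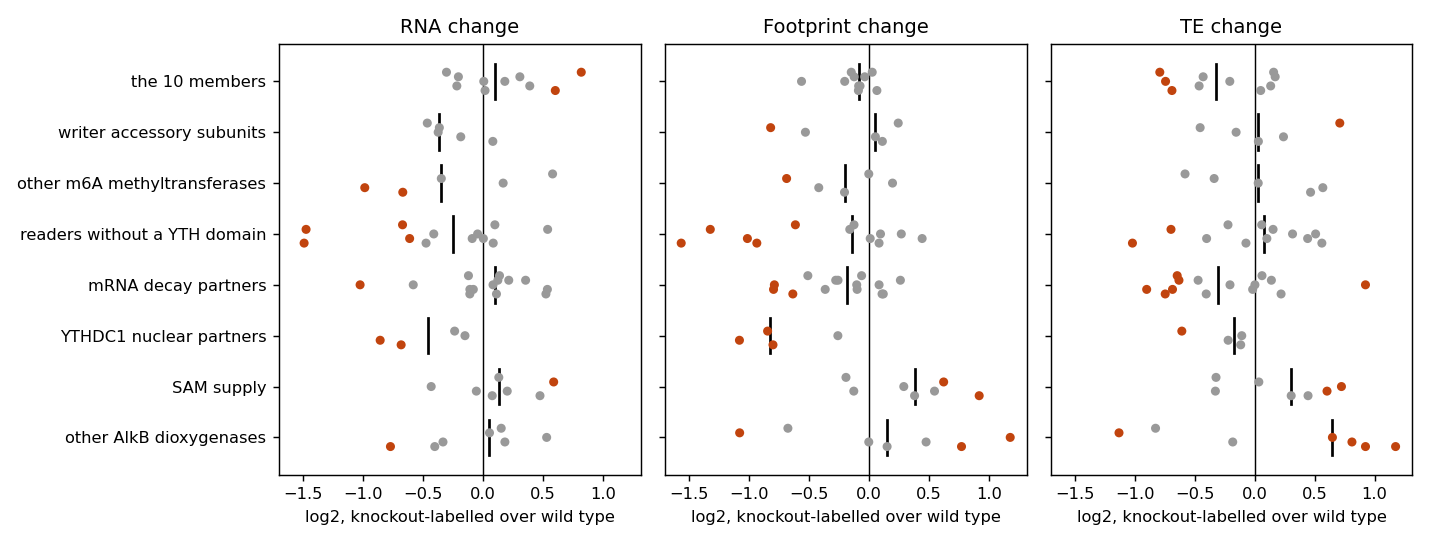
RNA, footprint and TE change (log2, IMP1-/- over wild type) of every measured gene of the 10 members and the 7 other lists, with called genes coloured and black bars at list medians. The members have no called gene in the footprint panel, where readers without a YTH domain reach -1.56 and SAM supply genes 0.92.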

How the data were processed

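The authors deposited raw read counts, whole numbers for 1 transcript per gene symbol, not normalized. Per the labels' protocols, size selection kept 18 to 34 nt for footprints and 18 to 50 nt for fragmented RNA; linkers carried random identifiers and amplification took 15 PCR cycles. Tools listed in the submitters' processing notes are HISAT2 2.1.0, Bowtie 1.1.2 and cutadapt 1.10, with build GRCh38. What each did, which region was counted, and whether identifiers were collapsed is not stated there, so reads may not be independent molecules. Groups were taken from the library titles.

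Libraries of 1 kind were scaled by TMM in edgeR 4.0.16 (R 4.3.3), with an IMP1-/- to wild-type ratio of 0.900 for RNA and 1.00 for RPF. Log2 ratios used a prior count of 0.5 and at least 50 reads over both libraries. RNA and RPF intervals are exact conditional (Clopper-Pearson) intervals, and TE intervals come from reciprocal counts. A count of 0 allows up to 3 counts, or 0.540 to 0.794 CPM. TE within a genotype used library totals. Lengths and coordinates came from GENCODE 29, which held 19176 (99.9%) of the transcripts; promoters came from RefSeq. The procedure was tested on simulated data with counting error only. That test cannot show how it does with variation between cultures, clones or libraries. Ratios, intervals and figures were made with pandas 2.3.3, SciPy 1.17.1, NumPy 2.4.6 and matplotlib 3.10.9 under Python 3.11.15. DESeq2 1.42.0 gave alternative size factors.

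Members and lists were chosen with earlier results of these data known. Named genes are all 10 members, IGF2BP1 to IGF2BP3, list genes called in any change and, for called members, the 2 genes with the nearest RNA and RPF changes among genes with at least 200 reads in every library. KIAA1429 and CNOT1, the scaffolds of their complexes, and METTL5 were named outside this rule, after their values were seen. ELAVL1 is not analysed here, and 1 leukocyte marker is not reported here.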

Additional observations from a re-analysis of the deposited data

How the results depend on the processing

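The RNA, footprint and TE changes of the members were recomputed with library totals, median of ratios, TMM without the MTRNR2L genes and PLCG2, minimum reads of 200 or none, a prior count of 5, call thresholds of 2-fold and of a lower fold than 1.5, and 99% intervals. None of the 3 scalings, the read minimums, the prior count or the 99% interval changed a call of a member, and no called change reversed; another scaling moved the median of all genes by at most 0.02 on the log2 scale. With the minimum of 200 reads METTL14 gave no footprint or TE value. At 2-fold, 0 members were called higher in RNA and 0 lower in TE, and 3, 6 and 3 genes of the other lists were called in RNA, footprints and TE; with the minimum of 200 reads these list counts were 10, 16 and 12, and with library totals they did not move. At the lower threshold WTAP was called lower in footprints, which made 1 member there, METTL14 was called higher in RNA (0.39) and YTHDC1 lower in TE (-0.43). The other pair ratios, the YTHDF shares and the correlations across genes were given no alternative scaling. Per transcript kb, the METTL3 to METTL14 footprint ratio was 14.3 in IMP1-/- and 12.9 in wild type. Leaving the MTRNR2L genes and PLCG2 out of the totals shifts every TE level of a genotype alike. It took the members' median log2 TE from 0.125 to -0.085 in IMP1-/- and from 0.321 to 0.122 in wild type. No paired analysis was possible because each group has 1 library, and for the same reason no library could be left out. Depth limits METTL14 most, whose 96 and 101 footprints leave an interval of 0.711 to 1.27 for the ratio.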

Other observations

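The core m6A motif GGACT, read on the transcript strand, was counted in the members' own mRNAs; m6A itself was not measured here. METTL3, WTAP and ALKBH5 hold 4 copies each, 1.99, 1.90 and 1.46 per kb, where the median of 9589 genes was 0.945 per kb. YTHDC2 also holds 4 and FTO 5, but at 0.633 and 0.425 per kb. METTL14 holds 8, of which 6 lie in its 3′ UTR. YTHDF1 and YTHDC1 hold 1 each, and YTHDF3 holds 2. Over all genes Spearman's rho between copies per kb and the RNA, footprint and TE changes was 0.01, 0.01 and -0.01, a description across genes that share the same 4 libraries.

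Among 2721 genes with at least 200 reads in every library, those with RNA and footprint changes nearest to ALKBH5 were RPL7L1 (0.85 and -0.02) and EPS15 (0.74 and 0.08). Nearest to YTHDF1 were NRD1 (0.60 and -0.12) and PLCG2 (0.56 and -0.12), and nearest to WTAP were SRM (0.21 and -0.56) and SMURF1 (0.14 and -0.58). PLCG2 had the most reads of any gene in both RNA libraries and was left out of an alternative scaling above. Likeness is the Euclidean distance over both log2 changes, from 4 libraries.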
